A study of Mus musculus with 20 samples.

Results

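The activin, inhibin and follistatin system was followed over 10 genes in the uteri of ovariectomized mice given estradiol (E2), bisphenol A (BPA) or HPTE, the estrogenic metabolite of the pesticide methoxychlor. The genes were taken by name from the arrays: Inhba, Inhbb, Inha, Fst, Fstl1, Fstl3, Acvr1, Acvr1b, Acvr2a and Acvr2b, out of 27962 gene names and 41174 probes in all. They were covered by 15 probes, of which 14 entered the tests; an Acvr2a probe that was not well above background on any array did not. Where a gene had several probes, its value is that of the probe with the highest mean log2 intensity over the 20 arrays, called the main probe here, and the others are named where they differed.

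All animals were female C57bl6/J mice that were adult (at least 10 weeks of age), had lost their ovaries by surgery and had then rested for 10 to 14 days. Each received 1 subcutaneous injection of 100 µl of sesame oil alone (vehicle) or with 250 ng of E2, 750 µg of BPA or 750 µg of HPTE, and each array measured the RNA of 1 uterus. The 7 groups were vehicle (n = 3, taken 24 h after injection), E2 at 2 h (n = 3) and 24 h (n = 2), BPA at 2 h and 24 h (n = 3 each) and HPTE at 2 h and 24 h (n = 3 each). All 6 treated groups were compared with the same 3 vehicle uteri, so the 6 comparisons share their controls, and a vehicle uterus taken at 2 h was not analysed here. E2 was given at a different mass dose from BPA and HPTE. Values for E2 therefore stand beside those for the other compounds at unmatched doses, whereas BPA and HPTE were matched by mass only.

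Activins are dimers of β subunits, the products of Inhba and Inhbb, and they signal by bringing together type II receptors (Acvr2a, Acvr2b) and type I receptors (Acvr1b, Acvr1), which phosphorylate Smad proteins. Inhibin is a β subunit joined to the α subunit encoded by Inha and opposes activin, and follistatin (Fst) and its relative Fstl3 bind the ligands outside the cell. In the uterus the system is known for its part in the preparation of the endometrium for implantation, and in the ovary for the control of follicle growth and of pituitary FSH.

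Intensities are given after scaling each array to the same 75th percentile and are called scaled intensities; they were compared between arrays for 1 probe, never between probes. Changes are log2 differences of group means from the limma fit, and a gene is called changed where the p adjusted over all 32460 tested probes was under 0.05. The arrays had 75th percentile intensities of 1320 to 2046 and 72.7 to 81.4% of probes well above background. All 4 uterine marker genes (Esr1, Pgr, Hoxa10, Hoxa11) were well above background on all arrays. The early genes Fos and Nr4a1 were 4.23 to 5.38 log2 units above vehicle in all 3 groups at 2 h. Ccnb2 and Mcm2 were the check genes chosen for 24 h. Of these 4 genes together, E2 raised 2 and lowered 0 at 24 h. BPA raised 1 and lowered 1, and HPTE raised 1 and lowered 0, and which genes these were is not given here.

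Several uteri carried transcripts of other tissues, and their part in the results was not tested. Of 5 exocrine pancreas markers (Cpa1, Cel, Pnlip, Ctrb1, Cela3b), Cpa1 read 447127 in E2 2 h replicate 2 and 42268 in replicate 3, but 4 in replicate 1, and 844 and 2849 in the E2 24 h uteri; outside the E2 groups it was at most 28. The 5 sperm cell markers (Prm1, Prm2, Tnp1, Tnp2, Odf1) summed to 50133 to 164595 in the vehicle uteri and to 505 to 20317 in the treated ones, although Odf1 was at most 19 throughout. The 4 leukocyte markers summed to 134388 at most in the BPA 2 h group, where Emr1, a macrophage surface antigen, read 109361 in replicate 1, against 5282 to 5787 in vehicle uteri. The leukocyte sums were 12425 to 14231 in vehicle uteri, and 11138 to 18363 after E2 and 9325 to 10893 after HPTE at 2 h. At 24 h they were 8174 to 9035 after E2, 21601 to 28762 after BPA and 13211 to 29770.5 after HPTE. BPA 2 h replicate 3 lay nearer to vehicle than the other BPA 2 h uteri for Inhbb, Inha, Fstl1, Acvr1 and Acvr2b among others, so the BPA changes of the 10 genes at 2 h are given without it too.

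60-base probes of Inha, Inhba, Inhbb, Fst and Fstl3 are shown because the results turn on these genes, for Inhbb the second probe and not the main one; capitals mark cysteine codons in the reading frame free of stop codons that holds the most of them. The deposited scanner files place them on mouse assembly mm7: Inha at chr1:75736294-75736353 (+), Inhba at chr13:15394279-15394338 (+), the second Inhbb probe at chr1:119278359-119278418 (-), Fst at chr13:111626922-111627594 (-) and Fstl3 at chr10:79561139-79561198 (+). The Fst probe spans 673 bases of that assembly with 60 bases, so its match there is split. The second Inhbb probe holds no cysteine codon in that frame. Cysteines of the ligand subunits and of the follistatin domains form the disulfide bridges that shape these secreted proteins.
Inha: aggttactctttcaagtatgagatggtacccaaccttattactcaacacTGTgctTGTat
Inhba: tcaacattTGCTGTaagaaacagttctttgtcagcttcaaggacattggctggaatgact
Inhbb, second probe: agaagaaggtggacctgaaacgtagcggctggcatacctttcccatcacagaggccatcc
Fst: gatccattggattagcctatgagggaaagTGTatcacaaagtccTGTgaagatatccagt
Fstl3: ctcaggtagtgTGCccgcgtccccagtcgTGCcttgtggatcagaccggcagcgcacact

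At 2 h, by the main probes, the activin βB subunit and Fstl3 rose with every compound, while the inhibin α subunit and the type I receptor Acvr1 fell with every compound. Some of these calls were lost in other settings, as given below. Among them were the E2 calls of Acvr1 and Fstl3, and that of Inha with its second probe. E2 raised 2 of the 10 genes, against 11.1% of all probes, and lowered 2, against 17.0%. BPA raised 2 (19.3% of all probes) and lowered 5 (30.2%), and HPTE raised 2 (19.9%) and lowered 4 (28.2%). The median change of the 10 genes was -0.08, -0.25 and -0.34 for E2, BPA and HPTE, beside -0.06, -0.10 and -0.09 over all probes tested, and each of these counts of 10 lay near or above its share of all probes.

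At 24 h the number of genes called differed between the compounds, as it did over all probes. Each count of 10 given here lay near or under its share of all probes. E2 raised 3 genes, Inhbb, Fstl3 and Acvr2a by its main probe (26.3% of all probes), and lowered 3, Inha, Acvr1 and Acvr2b (37.6%). BPA raised 0 (5.09% of all probes) and lowered 0 (8.03%) by limma, with 1 gene, Inhbb, at an unadjusted p under 0.05. HPTE raised 0 (14.9%) and lowered 1, Acvr1 (19.1%), with 4 genes at an unadjusted p under 0.05. The median change of the 10 genes was -0.17, -0.11 and -0.15, beside -0.15, -0.03 and -0.06 over all probes. The counts of BPA and HPTE at 24 h moved to 1 and to 0 to 4 under other settings, for which no shares of all probes are given.

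**Figure D1:**
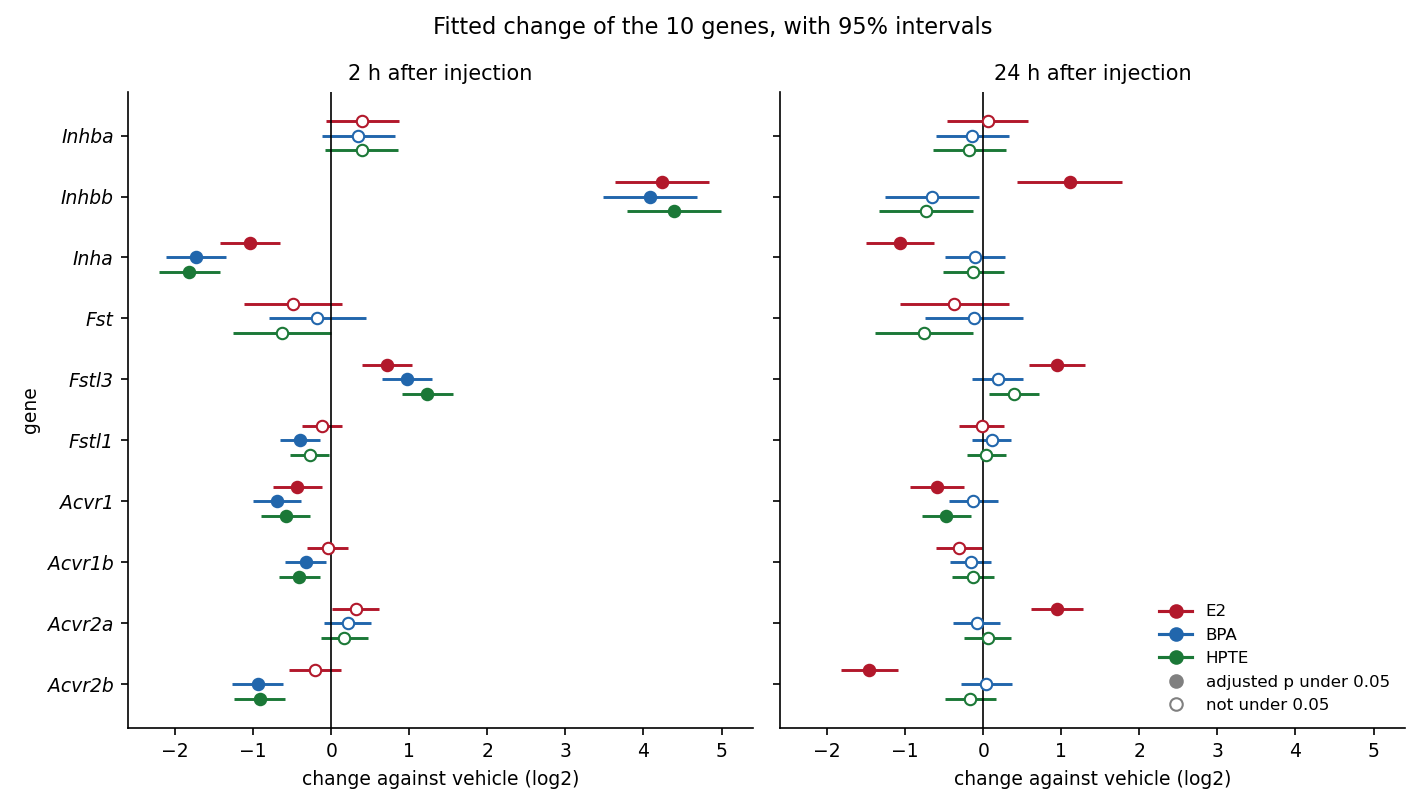
Fitted log2 change against vehicle (horizontal axis) of the 10 genes 2 h and 24 h after E2, BPA or HPTE, with 95% intervals; filled points have an adjusted p under 0.05. At 2 h Inhbb stands at 4.08 to 4.39 for all compounds, and at 24 h the filled points are those of E2 and of Acvr1 under HPTE.

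Inhbb, the βB subunit of activin B, changed most of the 10 genes at 2 h. Its main probe, at chr1:119276025-119276084 (mm7, minus strand), read 6422, 5562 and 4713 in the vehicle uteri. At 2 h it read 100960, 100588 and 112311 after E2, 128088, 123499 and 51464 after BPA, and 120266, 116983 and 109469 after HPTE. Every treated uterus at 2 h lay above every vehicle uterus, and the 3 treated groups overlapped.

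The fitted changes of Inhbb at 2 h were 4.24 ± 0.28 (SE, 18.9-fold, adjusted p = 1.26e-07) for E2, 4.08 ± 0.28 (16.9-fold, 8.02e-08) for BPA and 4.39 ± 0.28 (20.9-fold, 4.03e-08) for HPTE. Without BPA 2 h replicate 3 the BPA change was 4.51. E2 2 h replicate 1, which lacked the pancreas transcripts, read 100960 and replicate 2, which was rich in them, 100588. Without replicate 2 the E2 changes at 2 h were 4.27 for Inhbb, -1.11 for Inha and 0.67 for Fstl3, and without replicate 3 they were 4.19, -1.09 and 0.63, all still called. Within the slides that held both groups the Inhbb differences were 3.97 for E2, 3.00 and 4.53 for BPA, and 4.19 and 4.30 for HPTE, and with slide as a block the changes were 4.32, 4.01 and 4.32. No array was saturated at this probe.

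By 24 h Inhbb had fallen from its 2 h level under all 3 compounds, with changes of -3.13, -4.73 and -5.12 for E2, BPA and HPTE (adjusted p = 7.86e-07, 1.45e-08 and 4.71e-09). It read 8412 and 16817 after E2, 3378, 3579 and 3595 after BPA, and 3294, 3387 and 3256 after HPTE. Both E2 uteri lay above the vehicle range and all 6 BPA and HPTE uteri below it. The change against vehicle was 1.11 ± 0.32 for E2 (adjusted p = 0.0064), -0.65 ± 0.28 for BPA (0.149) and -0.74 ± 0.28 for HPTE (0.0562). The BPA and HPTE values passed the threshold without BPA 2 h replicate 3 (adjusted p = 0.027 and 0.0059), where the SE of the BPA change was 0.18 instead of 0.28. HPTE did so too without either E2 24 h uterus (0.034) or without BPA 2 h replicate 1 (0.044) or 2 (0.0499). Both passed with only the compared groups in the fit (0.045 and 0.014) and with array weights (0.013 and 0.0039). HPTE also passed with quantile normalization (0.044, or 0.033 after normexp background correction) and without scaling (0.028). It passed as well with a filter for probes well above background on all arrays (0.049) and the trended robust prior (0.047). Neither passed with spike-in scaling, with no filter on dim probes or with slide or scan day as a block.

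The E2 value for Inhbb at 24 h rested on replicate 3: without it the change was 0.61 (adjusted p = 0.16), and without replicate 2 it was 1.61. On the slide that held vehicle, E2, BPA and HPTE uteri of 24 h, the Inhbb differences were 1.84, -0.48 and -0.53, and a further slide gave -0.64 for BPA. The group means of Inhbb ran from HPTE 2 h through E2 2 h and BPA 2 h, which overlapped, to E2 24 h, vehicle, BPA 24 h and HPTE 24 h. Beyond the groups of 2 h, the only neighbours in that order that overlapped were BPA 24 h and HPTE 24 h.

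The second Inhbb probe, 2334 bases from the first on the assembly and printed above, gave 4.57, 4.75 and 4.72 for E2, BPA and HPTE at 2 h and 1.60 for E2 at 24 h, all called. Its changes at 24 h were -0.03 for BPA (adjusted p = 0.971) and -0.35 for HPTE (0.534), with BPA and vehicle uteri overlapping. The level of Inhbb below vehicle after BPA was thus seen with 1 of the 2 probes.

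**Figure D2:**
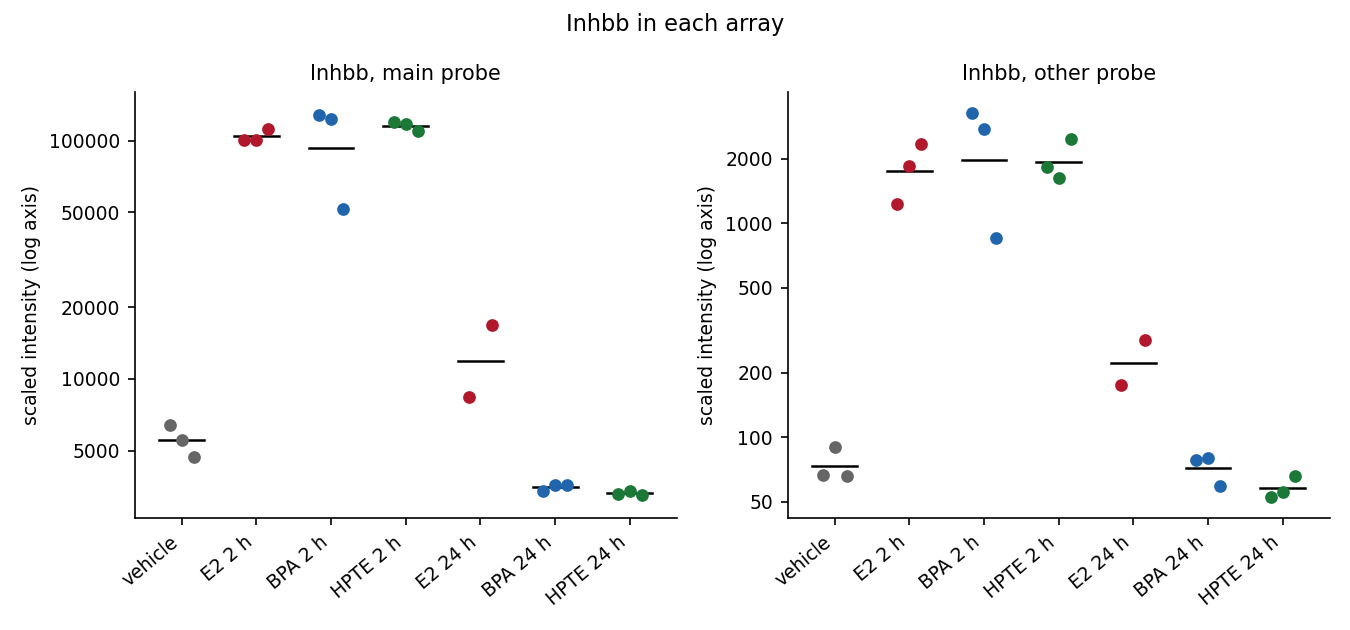
Scaled intensity of the 2 Inhbb probes (vertical log axes, each on its own scale) in the 20 uteri by group; points are uteri and bars geometric means. All 9 treated uteri of 2 h lie above all vehicle uteri, and BPA 2 h replicate 3 is the lowest of them on both probes.

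Inhba, the βA subunit of activin A, was not called against vehicle in any group. It read 1753, 2215 and 2228 in vehicle uteri, 2253, 2844 and 3085 at 2 h after E2, 2828, 3821 and 1645 after BPA, and 2959, 2432 and 2696 after HPTE. The E2 and HPTE uteri of 2 h all lay above vehicle and BPA replicate 3 lay below it. The changes were 0.40, 0.35 and 0.39 (adjusted p = 0.201, 0.207 and 0.161).

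Leaving out BPA 2 h replicate 3, the uterus with the lowest Inhba value of all 20, put Inhba past the threshold at 2 h with 0.68 for BPA (adjusted p = 0.0022), 0.40 for E2 (0.043) and 0.39 for HPTE (0.031). Array weights did so for BPA (0.51, 0.025) and HPTE (0.40, 0.016) but not for E2. Inhba at 24 h lay between 1762 and 2279 in all 8 treated uteri, and its changes were 0.06, -0.14 and -0.18. Between 2 h and 24 h it fell under HPTE (-0.57, adjusted p = 0.0393), but that call was lost with slide as a block (-0.47, 0.16), with no filter on dim probes (0.052) and without any 1 of the HPTE uteri other than replicate 2 of 2 h (0.066 to 0.12), while the changes of -0.34 under E2 and -0.49 under BPA had adjusted p = 0.256 and 0.0787. Every neighbouring pair in the order of Inhba group means overlapped.

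Inha, the α subunit that makes an inhibin of a β subunit, fell at 2 h with all compounds. Its main probe read 594, 508 and 571 in vehicle uteri, 228, 299 and 292 at 2 h after E2, 147, 129 and 248 after BPA, and 155, 153 and 167 after HPTE. Every treated uterus of 2 h lay below every vehicle uterus, and the HPTE uteri lay below all E2 uteri. The changes were -1.04 ± 0.18 for E2 (adjusted p = 0.000551), -1.73 ± 0.18 for BPA (3.09e-06) and -1.82 ± 0.18 for HPTE (1.6e-06).

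At these unmatched doses Inha differed from its level after E2 by -0.69 after BPA (95% interval -1.08 to -0.31, adjusted p = 0.0164) and by -0.78 after HPTE (-1.17 to -0.39, adjusted p = 0.00921). The BPA difference lost its call with slide as a block (-0.69, 0.056), with only the compared groups in the fit (0.20) and without E2 2 h replicate 2 (0.059) or 3 (0.052) or BPA 2 h replicate 1 (-0.60, 0.073) or 2 (-0.50, 0.080), and both lost it without scaling (-0.40 and -0.41, 0.17 and 0.14). Both also lost it with spike-in scaling (-0.53 and -0.46, 0.50 and 0.41). Without BPA 2 h replicate 3 the change of Inha against vehicle was -2.01 and the difference from E2 -0.98. The second Inha probe gave -0.45 for that difference (adjusted p = 0.17). Inha at 24 h was still low after E2, at 271 and 260 (-1.07 ± 0.20, adjusted p = 0.00029), but read 493, 505 and 557 after BPA and 564, 510 and 461 after HPTE, within or next to the vehicle range (-0.10 and -0.13, adjusted p = 0.761 and 0.637). From 2 h to 24 h Inha rose by 1.63 under BPA and 1.69 under HPTE (adjusted p = 4.11e-06 and 1.83e-06) and moved by -0.03 under E2 (0.919).

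With slide as a block the Inha changes at 2 h were -1.05, -1.74 and -1.82, and within slides they ran from -0.99 to -1.96. The second, dim Inha probe, 2720 bases away, gave -0.37 for E2 at 2 h (adjusted p = 0.242), -0.82 for BPA, -1.19 for HPTE and -0.66 for E2 at 24 h, the last 3 of them called. In order of group means Inha ran from vehicle, BPA 24 h and HPTE 24 h, which overlapped, to E2 2 h and E2 24 h, which overlapped, and then to BPA 2 h and HPTE 2 h, which overlapped; the BPA 2 h uteri also overlapped those of E2 2 h.

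Inha is a gonadal gene, and the vehicle uteri with high Inha also held the most sperm cell transcripts, so both are given side by side. Prm1, a protamine of sperm, read 26603 to 89582 in vehicle uteri, 348 to 1180 at 2 h after E2, 5108 to 10828 after BPA and 1734 to 5296 after HPTE. At 24 h it read 240 and 542 after E2, 2601 to 4731 after BPA and 1112 to 1587 after HPTE. Group means of both Inha and Prm1 were highest in vehicle, and both lay below vehicle in all E2 uteri. The BPA and HPTE uteri of 24 h had Inha intensities near those of vehicle with Prm1 far below vehicle. BPA uteri of 2 h had less Inha than those of 24 h with more Prm1. Whether carried-over tissue had a part in the Inha values was not tested. Of the 7 gonadal somatic markers, Cyp19a1 was at most 16 on all arrays, and the summed level was 1385 to 1731 in vehicle uteri and 639 to 1716 in treated ones; Rhox5, a gene of Sertoli cells, read 96 to 343 in vehicle uteri and at most 57 elsewhere.

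**Figure D3:**
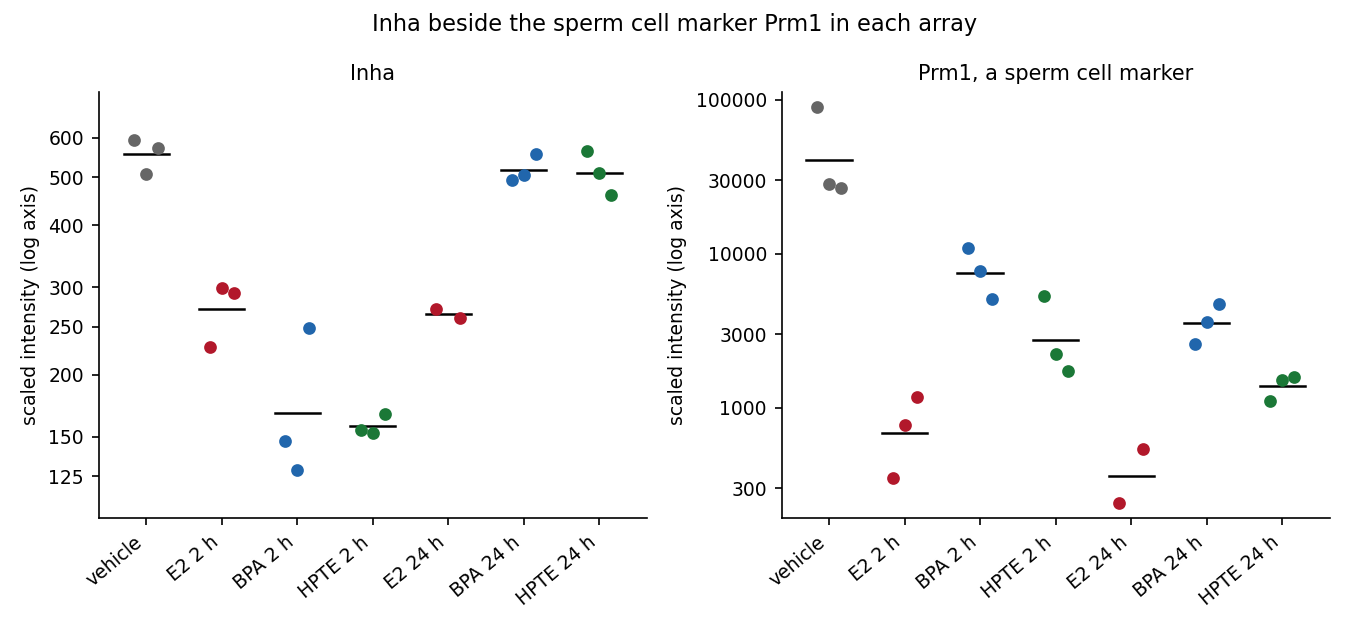
Scaled intensity (vertical log axes, each on its own scale) of Inha and of the sperm cell marker Prm1 in the 20 uteri by group; points are uteri and bars geometric means. Both have their highest group mean in vehicle and lie below vehicle in all E2 uteri. Inha is near the vehicle level in the BPA and HPTE uteri of 24 h, where Prm1 is at most 4731 against at least 26603 in vehicle uteri.

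Among the antagonists, Fstl3, a secreted binding protein of activins and myostatin, rose with all compounds at 2 h. It read 348, 297 and 306 in vehicle uteri, 437, 551 and 577 after E2, 555, 745 and 573 after BPA, and 785, 655 and 798 after HPTE. All 9 treated uteri of 2 h lay above vehicle, and the HPTE uteri lay above the E2 uteri. The changes were 0.71 ± 0.15 (adjusted p = 0.00252), 0.97 ± 0.15 (0.000104) and 1.23 ± 0.15 (9.79e-06), and HPTE exceeded E2 by 0.52 (95% interval 0.20 to 0.84, adjusted p = 0.0289) at unmatched doses. That last call was lost with slide as a block (0.53, adjusted p = 0.057), with only the compared groups in the fit (0.076) and without E2 2 h replicate 1 (0.40, 0.13). Spike-in scaling lost it too (0.84, 0.15). The BPA change without BPA 2 h replicate 3 was 1.02. Leaving out the first or the third HPTE uterus of 2 h also lost the call of HPTE against E2 (0.48 and 0.47, adjusted p = 0.091 and 0.095).

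Fstl3 was also higher at 24 h after E2, at 607 and 608 (0.94 ± 0.17, adjusted p = 0.000173). After BPA it read 446, 312 and 333 (0.18, adjusted p = 0.467) and after HPTE 445, 375 and 428 (0.39 ± 0.15, 0.0571), the last all above vehicle. The HPTE value passed the threshold on leaving out E2 2 h replicate 1 (adjusted p = 0.046), the second BPA uterus of 2 h (0.042) or the first of 24 h (0.036). It also passed with quantile normalization (0.016), only the compared groups in the fit (0.044), scan day as a block (0.043) and array weights (0.012). With slide as a block, spike-in scaling or no scaling it did not pass. Between the times Fstl3 fell by 0.79 under BPA and 0.84 under HPTE on the log2 scale (adjusted p = 0.000526 and 0.00024) and changed by 0.23 under E2 (0.269). With slide as a block its changes at 2 h were 0.64, 0.90 and 1.17. Within slides they were 0.66 for E2, 0.72 and 0.90 for BPA, and 0.91 and 1.43 for HPTE. The E2 call at 2 h was lost without scaling between arrays (0.48, adjusted p = 0.065) and with scaling to spike-in probes (0.64, 0.24).

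Fst, follistatin itself, was dim and variable and was not called in any comparison. It read 154, 234 and 123 in vehicle uteri, 93 to 144 at 2 h after E2, 117 to 202 after BPA and 99 to 115 after HPTE, and 68 to 208 over the 8 treated uteri of 24 h. Only the HPTE 2 h uteri lay wholly below vehicle, and the vehicle uteri themselves had a log2 SD of 0.47. The 2 largest changes were -0.63 for HPTE at 2 h (95% interval -1.26 to -0.0041, adjusted p = 0.0909) and -0.76 at 24 h (-1.38 to -0.13, 0.0587), and leaving out vehicle replicate 3, the lowest of the vehicle uteri, brought both past the threshold (-0.84 and -0.97, adjusted p = 0.043 and 0.030). Leaving out vehicle replicate 2, the highest, brought them to -0.37 and -0.50 (0.35 and 0.24), and within the slide that held both groups the change at 24 h was -0.16. The change at 24 h also passed it without the second HPTE uterus of 24 h (-0.93, 0.047) and on leaving out BPA 2 h replicate 3 (0.044). Array weights brought both HPTE changes past it (-0.87 at 2 h and -0.89 at 24 h, 0.0037 and 0.0098). Without scaling the change at 24 h passed too (-0.87, 0.037). Neither passed with quantile normalization, spike-in scaling or slide as a block. The BPA change of Fst at 2 h was -0.18, and -0.42 without BPA 2 h replicate 3.

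Fstl1, a secreted glycoprotein more distantly related to follistatin, read 23707 to 24980 in vehicle uteri, 21808 to 22630 at 2 h after E2, 16550, 15820 and 23318 after BPA, and 19600 to 20612 after HPTE. All treated uteri of 2 h lay below all vehicle uteri by small margins. The change was -0.40 ± 0.12 for BPA (adjusted p = 0.0111), -0.12 for E2 (0.523) and -0.28 for HPTE (0.0678). The BPA call was lost without BPA 2 h replicate 1, the uterus with the leukocyte transcripts (-0.33, 0.054), or without replicate 2 (-0.30, 0.064), as well as with only the compared groups in the fit (0.11) and without scaling (-0.34, 0.13). Spike-in scaling lost it too (-0.31, 0.50). Without replicate 3 the change was -0.58, and within slides it was -0.03 (replicate 3) and -0.52 (replicate 1). Without BPA 2 h replicate 3 the HPTE change was called as well (0.0086). It was also called with quantile normalization (0.024), only the compared groups in the fit (0.024) and array weights (0.011). With slide as a block, spike-in scaling or no scaling it was not called. At 24 h the changes were -0.02, 0.11 and 0.04, and Fstl1 rose between the times under BPA (0.51, adjusted p = 0.00231) and HPTE (0.32, 0.0337). The BPA call was lost without scaling (0.34, 0.14) and with only the compared groups (0.059). The HPTE call was lost with slide (0.21, 0.36) or scan day (0.29, 0.074) as a block, with quantile normalization (0.062), without scaling (0.06, 0.80) and without any 1 of the HPTE uteri other than replicate 1 of 24 h (0.052 to 0.092).

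The type II receptors, which bind activin first, were Acvr2b and Acvr2a. Acvr2b read 1340, 1432 and 1713 in vehicle uteri, 1191, 1388 and 1289 at 2 h after E2, 713, 626 and 1042 after BPA, and 819, 720 and 831 after HPTE. The BPA and HPTE uteri lay below all vehicle and all E2 uteri, and the E2 uteri overlapped vehicle. Its changes were -0.21 ± 0.15 for E2 (adjusted p = 0.35), -0.94 ± 0.15 for BPA (0.000153) and -0.92 ± 0.15 for HPTE (0.000161), and the differences from E2 were -0.73 (95% interval -1.06 to -0.40, 0.00511) for BPA and -0.71 (-1.03 to -0.38, 0.00607) for HPTE at unmatched doses. Without scaling between arrays these differences were -0.44 and -0.33 (adjusted p = 0.11 and 0.20), and with spike-in scaling -0.57 and -0.38 (0.43 and 0.46). The BPA call was also lost with only the compared groups in the fit (0.13) and the HPTE call with slide as a block (-0.70, 0.050), and without BPA 2 h replicate 3 the BPA difference was -0.95. The HPTE change against vehicle lost its call with spike-in scaling (-0.67, 0.10).

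At 24 h the pattern of Acvr2b turned round: it read 612 and 479 after E2 (-1.46 ± 0.17, 2.75-fold lower, adjusted p = 3.01e-06), against 1499, 1562 and 1522 after BPA and 1259, 1357 and 1365 after HPTE (0.04 and -0.17, adjusted p = 0.902 and 0.441). Between the times Acvr2b fell by 1.25 under E2 and rose by 0.98 under BPA and 0.75 under HPTE, on the log2 scale. The differences between these time changes were 2.23 (BPA against E2, 95% interval 1.74 to 2.72, adjusted p = 1.72e-06) and 2.00 (HPTE against E2, 1.51 to 2.49, 7.48e-06). Without BPA 2 h replicate 3 the BPA change at 2 h was -1.15, and with slide as a block the BPA and HPTE changes at 2 h were -0.90 and -0.87 and the E2 change at 24 h -1.45. Within slides Acvr2b at 2 h differed by 0.05 for E2, by -0.36 (replicate 3) and -1.005 (replicate 1) for BPA and by -0.90 and -0.79 for HPTE, and at 24 h by -1.84 for E2.

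Acvr2a was measured by 2 tested probes 1703 bases apart, at chr2:48907412-48907471 and chr2:48909115-48909174 (mm7, plus strand), which gave opposite directions. The main probe read 138, 125 and 102 in vehicle uteri and 240 and 226 at 24 h after E2, above all other uteri (0.95 ± 0.16, adjusted p = 9.4e-05). The other probe read 158, 167 and 133 in vehicle uteri and 83 and 96 at 24 h after E2, below all vehicle uteri (-0.77 ± 0.18, adjusted p = 0.00151). No direction for the gene as a whole is therefore given.

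The other Acvr2a probe was also lower at 2 h after BPA (-0.74, adjusted p = 0.00143) and HPTE (-0.69, 0.00226) and at 24 h after HPTE (-0.55, 0.0165), where the main probe gave 0.21, 0.17 and 0.06 with adjusted p from 0.242 to 0.789. With quantile normalization the main probe was called at 2 h for E2, BPA and HPTE (0.55, 0.45 and 0.50, adjusted p = 0.0094, 0.015 and 0.0093). Its BPA change without BPA 2 h replicate 3 was 0.01. The main probe read 102 to 184 in all uteri other than those of 24 h after E2. Which transcripts either probe detects was not tested.

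**Figure D4:**
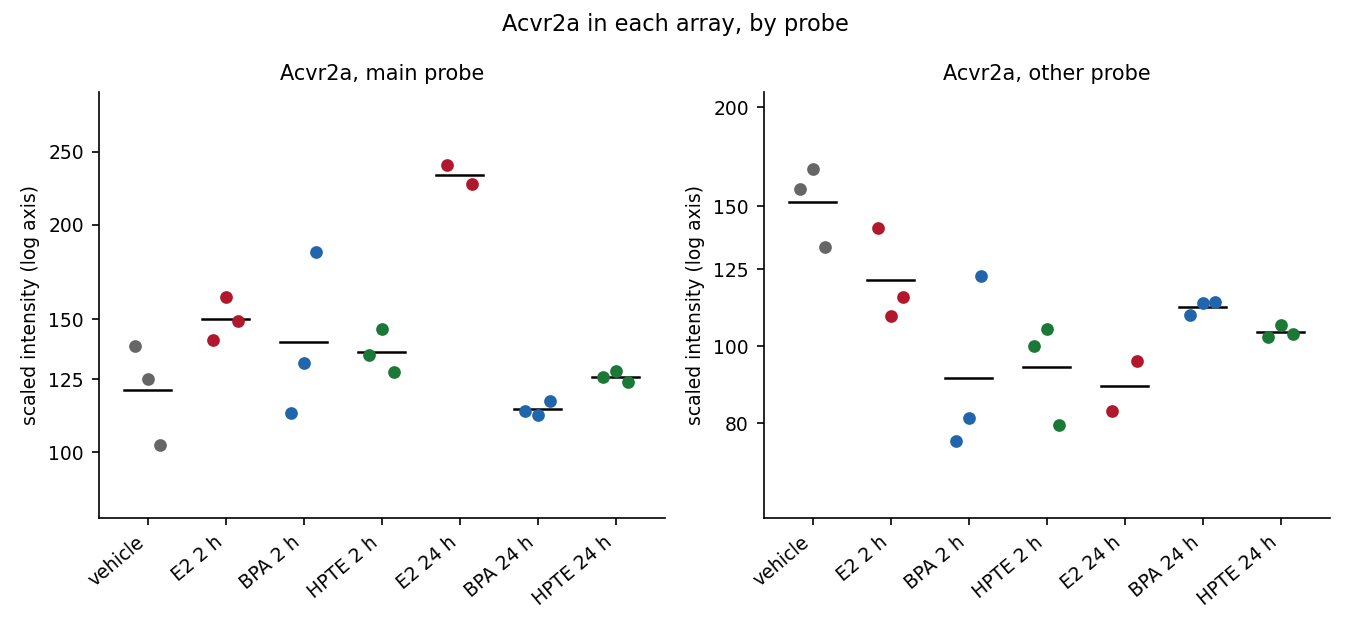
Scaled intensity of the 2 tested Acvr2a probes (vertical log axes, each on its own scale) in the 20 uteri by group; points are uteri and bars geometric means. The E2 24 h uteri are the 2 highest on the main probe, at 226 and 240, and lie below all vehicle uteri on the other, at 83 and 96.

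Of the type I receptors, Acvr1, which serves mostly BMP ligands, fell in 5 of the 6 comparisons with vehicle. It read 2789, 3049 and 2877 in vehicle uteri, 2283, 1791 and 2428 at 2 h after E2, 1600, 1520 and 2378 after BPA and 1973, 1994 and 1847 after HPTE. All treated uteri of 2 h lay below vehicle. The changes were -0.43 ± 0.15 (adjusted p = 0.0369), -0.69 ± 0.15 (0.00111) and -0.58 ± 0.15 (0.00376). Without BPA 2 h replicate 3 the BPA change was -0.90, and the HPTE call was lost without scaling (-0.44, 0.076). Between the times Acvr1 rose under BPA (0.57, adjusted p = 0.00456), a call lost with slide as a block (0.53, 0.072), with only the compared groups (0.056) and without scaling (0.39, 0.11).

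At 24 h Acvr1 read 1805 and 2064 after E2 (-0.59 ± 0.16, adjusted p = 0.00518), 2809, 2536 and 2636 after BPA (-0.13, 0.62) and 1941, 2082 and 2265 after HPTE (-0.47 ± 0.15, 0.0212). The difference between HPTE and BPA at 24 h was -0.35 (95% interval -0.66 to -0.03, adjusted p = 0.189), with no overlap between the 2 groups. The Acvr1 call for E2 at 2 h was lost with slide as a block (-0.41, adjusted p = 0.16) and without E2 2 h replicate 2, the uterus richest in pancreas transcripts (-0.30, 0.17), as well as without any 1 vehicle uterus (0.063 to 0.11) or with only the compared groups in the fit (0.075). The HPTE call at 24 h was lost with slide as a block too (-0.48, 0.13) and without vehicle replicate 2 (-0.44, 0.067), HPTE 24 h replicate 1 (-0.42, 0.077) or replicate 2 (-0.47, 0.052). The E2 call at 24 h was lost without replicate 2 (-0.49, 0.059), and scaling to spike-in probes left Acvr1 with adjusted p from 0.12 to 0.54 in these 5 comparisons.

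Acvr1b, the main type I receptor of activin, was lower at 2 h after BPA (-0.33 ± 0.12, adjusted p = 0.0387) and HPTE (-0.41 ± 0.12, 0.0131) and not called after E2 (-0.05, 0.833). It read 2599 to 2968 in vehicle uteri, 2519 to 2830 after E2, 1967 to 2311 after BPA and 2407, 2304 and 1576 after HPTE. The BPA and HPTE uteri lay below vehicle, with HPTE 2 h replicate 3 lowest; without it the HPTE change was -0.22 (adjusted p = 0.056), and without vehicle replicate 1 it was -0.35 (0.056). Both calls were lost without scaling (-0.27 each, adjusted p = 0.21 and 0.22 for BPA and HPTE), with spike-in scaling (-0.24 and -0.16, 0.63 and 0.76) and with only the compared groups in the fit (0.065 and 0.11). The BPA call was lost with slide as a block (-0.36, adjusted p = 0.060), with no filter on dim probes (0.052) and without vehicle replicate 1 (-0.27, 0.13) or 2 (-0.35, 0.062) or BPA 2 h replicate 1 (-0.36, 0.056) or 2 (-0.26, 0.15), and without replicate 3 the change was -0.37. The second Acvr1b probe gave -0.42, -0.58 and -0.56 for E2, BPA and HPTE at 2 h, all called, and at 24 h neither probe was called (main probe -0.31, -0.16 and -0.13). Between the times the second probe rose under BPA (0.74, adjusted p = 0.00028) and HPTE (0.67, 0.00054). The main probe gave 0.17 (0.294) and 0.28 (0.070) there and was not called.

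**Figure D5:**
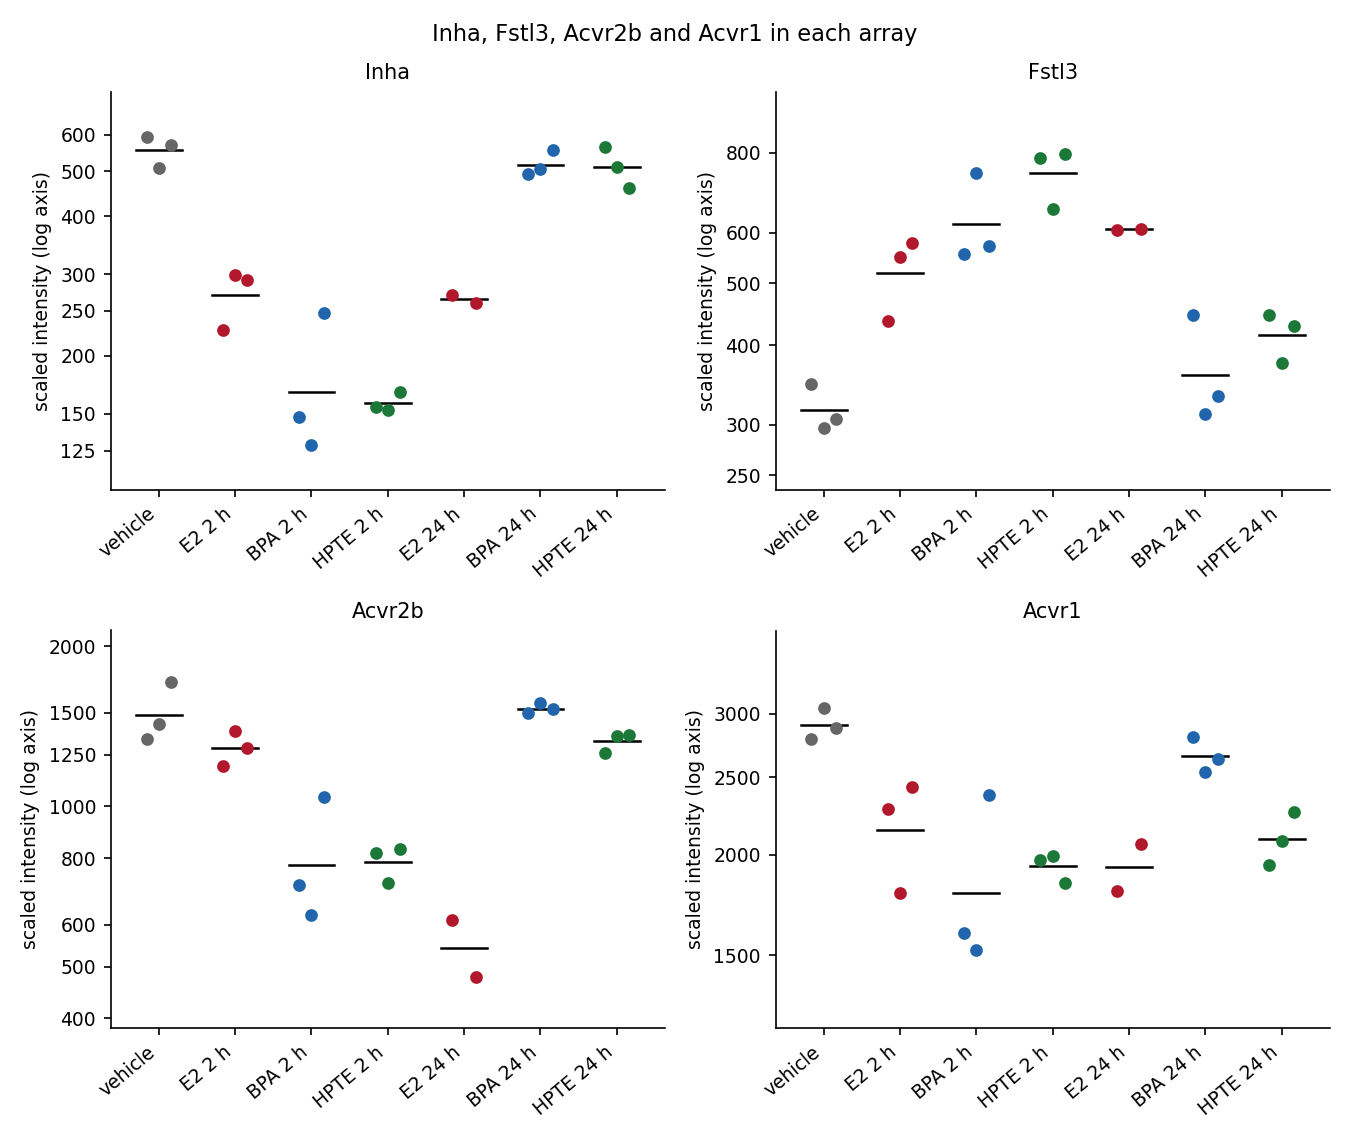
Scaled intensity (vertical log axes, each on its own scale) of Inha, Fstl3, Acvr2b and Acvr1 in the 20 uteri by group; points are uteri and bars geometric means. At 24 h the E2 uteri stand apart from the BPA and HPTE uteri for Inha, Fstl3 and Acvr2b, and for Acvr1 they lie near the HPTE uteri.

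For the other genes most neighbours in the order of group means overlapped, and the exceptions were few. They were E2 24 h above E2 2 h for Fstl3, E2 2 h above HPTE 2 h for Fstl1, BPA 24 h above E2 2 h for Acvr1 and E2 24 h above E2 2 h for the main Acvr2a probe. For Acvr2b they were E2 2 h above HPTE 2 h and BPA 2 h above E2 24 h, and for Acvr1b HPTE 24 h above BPA 24 h and the latter above E2 24 h; Fst had none. Groups further apart in the order overlapped in places, as BPA 2 h and E2 2 h did for Fstl1 and Fstl3.

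BPA and HPTE are both bisphenols; the carbon that joins their phenol rings carries methyl groups in BPA and a trichloromethyl group in HPTE. At their matched mass dose the 10 genes were compared at each time, which makes 20 comparisons, with p-values adjusted over all probes tested. HPTE and BPA differed in 0 of the 10 genes at 2 h by limma, against 0.437% of all probes, with 0 genes at an unadjusted p under 0.05 and 0 called under each alternative. They differed in 0 at 24 h, against 4.08%, with 2 genes, Fst and Acvr1, at an unadjusted p under 0.05 and 1, Acvr1, called with array weights.

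The fitted HPTE and BPA differences ran from -0.45 (Fst) to 0.31 (Inhbb) at 2 h and from -0.64 (Fst) to 0.21 (Fstl3) at 24 h. The 95% interval of the difference in Inhbb ran from -0.30 to 0.91 at 2 h and from -0.69 to 0.52 at 24 h; the intervals at these times were, for Inha, -0.47 to 0.30 and -0.41 to 0.37, for Fstl3 -0.06 to 0.59 and -0.11 to 0.53, and for Acvr2b -0.30 to 0.35 and -0.53 to 0.12. No difference in these genes passed the threshold, and a p that misses the threshold does not show that the compounds act alike. Between the 2 times, HPTE and BPA changed differently in 0 genes, against 0.0863% of all probes, with 1 gene, Acvr1, at an unadjusted p under 0.05 (-0.46, 95% interval -0.89 to -0.02, adjusted p = 0.326). Array weights gave 1 call, Acvr1 (-0.56, adjusted p = 0.0492).

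E2, a steroid, was set beside BPA and HPTE at unmatched doses. BPA differed from E2 at 2 h in 2 of the 10 genes, Inha and Acvr2b (19.0% of all probes), and HPTE in 3, Inha, Fstl3 and Acvr2b (16.6%). At 24 h BPA differed from E2 in 6 (57.8%), Inhbb, Inha, Fstl3, Acvr1, Acvr2a and Acvr2b, and HPTE in 5 (48.8%), the same without Acvr1. At 24 h Inhbb was lower after BPA and HPTE than after E2 (-1.76 and -1.84, adjusted p = 0.000221 and 0.000197), Inha higher (0.96 and 0.94, 0.000843 and 0.00128), Fstl3 lower (-0.76 and -0.55, 0.00129 and 0.0139) and Acvr2b higher (1.50 and 1.29, 3.01e-06 and 1.92e-05). The Fstl3 call of HPTE against E2 was lost without either E2 24 h uterus (0.060 and 0.068) or without HPTE 24 h replicate 2 (-0.48, 0.0502), and with spike-in scaling (-0.88, 0.063). The Inha calls were lost with the second probe (0.56 and 0.43, 0.063 and 0.17) and with spike-in scaling (0.80 and 0.61, 0.076 and 0.21). Acvr1 was higher after BPA (0.46, 0.0241), a call lost with slide as a block (0.084), without scaling (0.32, 0.22) and without E2 24 h replicate 2 (0.36, 0.17) or BPA 24 h replicate 1 (0.066). Spike-in scaling lost the Acvr1 call too (0.30, 0.57).

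Between 2 h and 24 h, 3 of the 10 genes changed by their main probes under E2 (56.0% of all probes), 6 under BPA (48.4%) and 6 under HPTE (54.1%). The time change differed from that of E2 in 6 genes under BPA (50.9%) and in 6 under HPTE (46.1%), of which Inhbb, Inha, Fstl3, Acvr2a (main probe) and Acvr2b were common to both. The F test over the 7 groups called 7 genes (81.3% of all probes); it missed Inhba (adjusted p = 0.0739), Fst (0.185) and Acvr1b (0.0501).

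Of 54 other genes of the TGF-β family pathway, 48 were tested. E2, BPA and HPTE raised 6, 8 and 10 of them and lowered 6, 12 and 10 at 2 h, and raised 6, 3 and 4 and lowered 21, 3 and 6 at 24 h. At 2 h their median change was -0.02, -0.05 and 0.05, whereas 24 h gave medians of -0.33, -0.10 and -0.18. Over all probes, E2, BPA and HPTE raised 11.1, 19.3 and 19.9% and lowered 17.0, 30.2 and 28.2% at 2 h. At 24 h they raised 26.3, 5.09 and 14.9% and lowered 37.6, 8.03 and 19.1%. The counts here and in the lists below are to be read against these shares. At most 3 called genes per list and comparison are named, by size of change. Genes such as Smad7, Acvr1c and Eng may therefore have been called in comparisons that are not named with them.

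Among 15 tested Smads and their regulators, 3, 4 and 7 genes rose and 1, 1 and 1 fell at 2 h, and 1, 0 and 0 rose and 7, 1 and 4 fell at 24 h. Skil, a repressor of Smad transcription, rose at 2 h by 1.03, 1.46 and 1.96 for E2, BPA and HPTE, and Tgif1, a corepressor, fell (-0.72, -0.96 and -1.52). The inhibitory Smad7 rose at 2 h after E2 (0.70) and fell at 24 h after BPA (-0.68) and HPTE (-0.97). The 7 genes that fell after E2 at 24 h included Ski (-0.95), a corepressor, and Smad5 (-0.83), which carries BMP signals.

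Among 12 tested other receptors and co-receptors, 1, 2 and 1 rose and 2, 6 and 3 fell at 2 h, and 1, 2 and 2 rose and 7, 0 and 0 fell at 24 h. Amhr2, the receptor of anti-Müllerian hormone, fell at 2 h (-1.79, -1.79 and -1.61) and at 24 h after E2 (-1.84). Bambi, a pseudoreceptor that blunts signaling, fell at 2 h (-0.92, -1.13 and -1.61). Acvr1c, a further type I receptor for activins and Nodal, fell at 2 h after BPA (-1.30) and at 24 h after E2 (-1.64).

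Eng, the endothelial co-receptor endoglin, rose at 2 h after E2 (0.72) and HPTE (1.13) and at 24 h after BPA (0.47) and HPTE (0.56). The 4 endothelial markers, all well above background on all arrays, summed to 11374 to 12092 in vehicle uteri and to 10000.3 to 11934.5 in treated uteri of 2 h. At 24 h they summed to 8679 to 8984 after E2 and to 11110 to 12803 after BPA and HPTE.

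Among 10 tested other ligands, 0, 1 and 1 rose and 1, 3 and 3 fell at 2 h, and 1, 1 and 1 rose and 4, 0 and 0 fell at 24 h. Inhbc, a further activin β subunit, fell at 2 h after BPA (-1.05) and HPTE (-0.71). Bmp2 fell at 2 h after BPA (-1.49) and HPTE (-1.80) and at 24 h after E2 (-1.72), and Bmp4 fell at 2 h after E2 (-0.46) and HPTE (-0.90) and at 24 h after E2 (-1.56). Gdf11, a ligand that also uses activin type II receptors, rose at 24 h with all compounds (1.10, 0.56 and 0.76), and Tgfb1 rose at 2 h after BPA (1.03), where replicate 1 carried the macrophage transcripts.

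Among 11 tested other antagonists, 2, 1 and 1 genes rose and 2, 2 and 3 fell at 2 h, and 3, 0 and 1 rose and 3, 2 and 2 fell at 24 h. Wfikkn1, a binding protein of Gdf11 and myostatin, rose at 2 h (0.60, 0.75 and 0.84), and Lefty1, an inhibitor of Nodal, fell (-0.60, -0.90 and -0.81). After E2 at 24 h Wfikkn2, the relative of Wfikkn1, fell (-3.01), as did Fstl4, a follistatin-like gene (-2.12), and Bmper, a BMP-binding protein, rose (1.30).

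Genes with the most similar pattern over the 20 arrays were sought by Pearson correlation of normalized log2 values; the arrays share the 7 groups, and no test was made. For Inhbb they were Coq10b (r = 0.992), Vegfa (0.991) and Fpgs (0.990), and for Inha Thra (0.983), Gucy1a1 (0.980) and Gypc (0.979). For Inhba they were a gene named 9530076L18 in the files (0.883), Bmp8a (0.877) and Pim1 (0.865), and for Fst Otud7b (0.825), Htatsf1 (0.815) and Mpp5 (0.813).

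Cells of the uterus were not separated, so fewer cells of a type and less RNA per cell cannot be told apart for any of these genes. Epithelial markers (7 genes) summed to 139935 to 164693 in vehicle uteri, 159005 to 168114 at 2 h after E2, 81060 to 124233 after BPA and 118464 to 134641 after HPTE. At 24 h they summed to 297888 to 341168 after E2, 192513 to 208864 after BPA and 235674 to 259084 after HPTE. Stromal markers (5 genes) summed to 410662 to 447544 in vehicle uteri and 345793 to 359619 at 2 h after HPTE. At 24 h they were 489425 to 563565 after BPA and 534533 to 556091 after HPTE, and the other groups overlapped vehicle. Smooth muscle markers (5 genes) were 458520 to 514490 in vehicle and 517894 to 571718 at 2 h after HPTE. At 24 h they were 774134 to 789760 after E2, 549956 to 617838 after BPA and 673982 to 758983 after HPTE.

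RefSeq promoter windows (GRCm38.p6) matched 9 of the 10 genes, Fst being the one without; the 250 bases before the start were searched on both strands. The full estrogen response element (GGTCANNNTGACC, which joins 2 of its core motifs), the AP-1 motif TGANTCA and the Smad box GTCTAGAC were in 0 of the 9 windows, against 0.0639%, 6.75% and 0.167% of 32851 windows. The core motif GGTCA was in 3, Inhba, Inha and Fstl3 (35.2% of windows), and the Smad core CAGAC in 4, Inha, Fstl3, Acvr2a and Acvr2b (42.2%). The RefSeq promoter sequence from which the Inha window was cut holds the sequence of the second Inha probe. Whether that probe lies within the 250 bases searched was not tested.

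The windows of the 2 genes that rose with all compounds at 2 h are shown, Inhbb at chr1:119422249-119422498 (minus strand) and Fstl3 at chr10:79777024-79777273 (plus strand), written 5′ to 3′ with GGTCA or TGACC in capitals. Fstl3 has 2 such matches side by side, the first starting 200 bases before the start, and Inhbb has 0. A match is a description of letters, not of a bound site.
Inhbb: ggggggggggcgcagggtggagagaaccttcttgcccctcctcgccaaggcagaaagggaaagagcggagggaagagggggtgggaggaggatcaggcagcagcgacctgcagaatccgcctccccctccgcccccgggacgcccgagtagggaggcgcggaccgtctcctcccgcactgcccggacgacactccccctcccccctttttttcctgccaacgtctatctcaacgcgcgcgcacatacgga
Fstl3: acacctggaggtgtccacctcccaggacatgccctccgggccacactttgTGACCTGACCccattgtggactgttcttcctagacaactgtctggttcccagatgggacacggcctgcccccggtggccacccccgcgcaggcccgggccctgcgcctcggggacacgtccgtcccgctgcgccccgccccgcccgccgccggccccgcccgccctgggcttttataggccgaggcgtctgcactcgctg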

How the data were processed

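Each array measured the RNA of 1 uterus on a 1-colour Agilent mouse array, and nothing in the labels gives more than 1 array per uterus; p-values measure the spread between these uteri. The deposited scanner intensity values were made by the authors with Agilent Feature Extraction (9.5 in the submitters' processing notes, 9.5.3.1 per the file headers), which subtracted background and spatial trend; probe positions are on mm7. The deposited flags of this software for well above background and saturation were used as given. The series value table equalled the scanner values on all 20 arrays (relative tolerance 1e-06).

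Intensities were converted to log2, spots of a probe averaged, and each array's 75th percentile subtracted; scaled intensities are these values on a linear scale times the median percentile (1679). Of 41174 probes, 32460 were tested, for which all arrays of 1 group or more were well above background. limma 3.58.1 (R 4.3.3; lmFit, eBayes, a mean per group over all 20 arrays, two-sided) gave changes, standard errors, 95% intervals and Benjamini-Hochberg adjusted p; it was tested on simulated data. Tables were made with Python 3.11.15, pandas 2.3.3 and NumPy 2.4.6. The number of arrays limits the precision.

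Groups came from the labels, whose time and treatment fields are exchanged. The 10 genes, the pathway and marker lists, and the rule to name all 10 genes and at most 3 called genes per pathway list and comparison, by size of change, were chosen with earlier results of these data known. Alternatives covered scaling, background correction, the filter, the samples fitted, slide, scan day and replicate number as blocks, array weights, the variance prior, other probes, a 2-fold minimum and leaving out each array. Replicate numbers did not pair the uteri: residuals of same-numbered uteri had a median correlation of -0.0486, with 12 of 57 pairs over 0.1, and those of different numbers -0.00823. GRCm38.p6 promoter windows came from RefSeq; 16628 of 18713 RefSeq accessions on the arrays matched its gene table, through which old symbols of similar genes were updated.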

Additional observations from a re-analysis of the deposited data

Results flagged for a closer look

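Several genes changed between 2 h and 24 h under 1 compound, with limma's adjusted p in parentheses. Under E2 these were Inhbb (-3.13, 7.86e-07), the main Acvr2a probe (0.63, 0.00308) and Acvr2b (-1.25, 1.79e-05). Under BPA they were Inhbb (-4.73, 1.45e-08), Inha (1.63, 4.11e-06), Fstl1 (0.51, 0.00231), Fstl3 (-0.79, 0.000526), Acvr1 (0.57, 0.00456) and Acvr2b (0.98, 9.24e-05). Under HPTE they were Inhba (-0.57, 0.0393), Inhbb (-5.12, 4.71e-09), Inha (1.69, 1.83e-06), Fstl1 (0.32, 0.0337), Fstl3 (-0.84, 0.00024) and Acvr2b (0.75, 0.000701).

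The change between the times also differed between compounds, by limma's test of the interaction, at unmatched doses of E2 and the other compounds. BPA minus E2 was -1.60 for Inhbb (0.00537), 1.66 for Inha (0.000127), -1.02 for Fstl3 (0.00159), 0.72 for Acvr1 (0.0121), -0.93 for the main Acvr2a probe (0.00197) and 2.23 for Acvr2b (1.72e-06). HPTE minus E2 was -1.99 for Inhbb (0.00136), 1.72 for Inha (0.000121), -1.07 for Fstl3 (0.0013), 0.54 for Acvr1b (0.0265), -0.74 for the main Acvr2a probe (0.00993) and 2.00 for Acvr2b (7.48e-06).

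Several of these calls were lost in some settings. For Acvr1b the HPTE minus E2 value was lost with slide as a block (0.49, adjusted p = 0.075), without scaling (0.03, 0.94), with only the compared groups (0.072), with array weights (0.38, 0.11), without E2 2 h replicate 1 (0.50, 0.058) or the third E2 uterus of 24 h (0.49, 0.096) and with the other probe (0.38, 0.14). For Acvr1 the BPA minus E2 value was lost without scaling (0.29, 0.44), with only the compared groups (0.055) and without the second E2 uterus of 24 h (0.62, 0.059). The Inhbb value of BPA minus E2 was lost without the third (-1.10, 0.053), and the Acvr2b change under HPTE without scaling (0.49, 0.053). With spike-in scaling the calls lost were those of Fstl1, Acvr1 and Acvr2b under BPA, Fstl1 and Acvr2b under HPTE, Acvr2a under E2, Acvr1 for BPA minus E2, and Inha and Acvr1b for HPTE minus E2.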

How the results depend on the processing

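Of 24 calls against vehicle, 13 were kept in every fit of the main probes, the 2-fold minimum aside, and 11 also with the second probes. Of the 36 gene comparisons without a call, 14 passed in some fit of the main probes. With replicate number as a block, 180 of 180 gene comparisons kept their direction and their side of the threshold, with 67 calls in both fits, while the F test called 8 genes in place of 7.

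The second Acvr2a probe had the opposite sign in 15 of 18 comparisons. In 9 of them either probe was called: -0.74 for BPA and -0.69 for HPTE at 2 h, -0.77 for E2 and -0.55 for HPTE at 24 h, 0.33 for BPA and 0.22 for HPTE against E2 at 24 h, -0.44 between the times under E2, and 0.74 and 0.59 for the interactions of BPA and HPTE with E2. Scaling to the spike-in probes turned Fstl1 between the times under HPTE (-0.23) and Acvr1b in the interaction of HPTE with E2 (-0.11); it moved the median of all probes under HPTE at 24 h to -0.357 from -0.0593. The cause was not tested.

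With spike-in scaling the number of genes called against vehicle was 2 for E2, 4 for BPA and 3 for HPTE at 2 h and 0 for HPTE at 24 h, it was 0 for BPA and 0 for HPTE against E2 at 2 h, 3 for HPTE against E2 at 24 h and 3 between the times under BPA. Requiring a 2-fold change as well left 2, 2 and 3 at 2 h, 3 for E2 and 0 for HPTE at 24 h, 0 and 0 for BPA and HPTE against E2 at 2 h, 3 and 2 at 24 h, and 2 and 2 between the times under BPA and HPTE. The 1 call of HPTE at 24 h became 3 with normexp and quantile, with quantile, without scaling and with only the compared groups, 2 with the stricter filter, scan day as a block or the trended robust prior, 4 with array weights and 0 with slide as a block. BPA at 24 h had 1 call with only the compared groups and 1 with array weights. BPA against E2 at 2 h had 1 without scaling, 1 with slide as a block, 0 with only the compared groups and 4 with array weights, and HPTE against E2 had 1 without scaling and 1 with slide as a block. HPTE against BPA had 1 at 24 h and 1 in the interaction with array weights. All these counts are given without the share of all probes called in the same setting. Whether they moved more than the calls over all probes was not tested.

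Leaving out each array in turn gave 3 to 6 calls for E2, 5 to 8 for BPA and 5 to 8 for HPTE at 2 h against vehicle, the highest counts without BPA 2 h replicate 3. It gave 0 to 1 for BPA and 0 to 3 for HPTE at 24 h, and 1 to 4 for BPA against E2 at 2 h. The share of all probes called in each of these fits is not given beside them either.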
